A study of Mus musculus with 15 samples.

Results

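The genes described here are 38 inflammatory cytokines, chemokines and genes of the NF-κB pathway, chosen by name from the 34554 genes and added sequences to which the deposited files could be summed. They fall into 21 secreted factors, 12 regulators of the pathway and 5 other members, which are surface receptors, an adhesion molecule, an enzyme and a responder gene. The samples were organoids from normal mouse pancreatic ducts, hollow epithelial cultures embedded in Matrigel and fed a medium with R-spondin, Noggin, the growth factors EGF and FGF10, gastrin and the TGF-β receptor inhibitor A 83-01. The study asked what follows when duct cells make CA19-9, a glycan of the Lewis family that mice do not make. Lines A217, A220 and A225, called inducible, carry all alleles that doxycycline needs to switch CA19-9 on, and lines A218 and A223, called negative, lack a required allele that the labels do not name. Doxycycline, at 1 µg/ml, was given for 0, 4 or 24 h to cultures of every line, and the 15 RNA libraries comprise 3 per time in the inducible group and 2 in the negative group. Both genotypes received the drug, and all libraries held the sequences of rtTA3, the doxycycline-dependent activator, and of the red fluorescent protein mKate2. A negative line is therefore a control for CA19-9 under the drug, and the cultures without doxycycline are those at 0 h. All cultures received new medium 24 h before a common harvest, so the 0 h cultures had medium of the same age as the others. The number of animals behind the lines is not in the labels, so the p-values cover the spread among these 5 lines only.

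NF-κB is a family of transcription factors, built from Rela, Rel, Relb, Nfkb1 and Nfkb2, that is held in the cytoplasm by inhibitor proteins of the IκB family. Signals from the receptors of tumour necrosis factor, interleukin-1 or microbial products activate kinases that mark the inhibitors for destruction, and the freed dimers enter the nucleus and switch on cytokines, chemokines and the inhibitors themselves, which closes a feedback loop. A slower, non-canonical branch processes Nfkb2 and acts through Relb. In the pancreas, duct and acinar cells release chemokines and colony-stimulating factors when injured, and these recruit and feed neutrophils and macrophages.

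Estimated counts summed to 47915632 to 59411540 per library. EGFP, which marks the induced alleles, lay between 0.341 and 0.737 CPM (counts scaled to the library total with TMM) at 0 h, 259 to 339.5 at 4 h and 270.0 to 385 at 24 h in inducible lines, and at or below 0.345 in negative lines at every time. The 11 duct and epithelial markers summed to 10300 to 17500 CPM, and their sum was higher at 24 h (14900 to 16600 in inducible and 16800 to 17500 in negative lines) than at 0 h (11200 to 13500 and 12100 to 12200). Over both genotypes, 2 of the 11 were called at 24 h, Krt8 and Krt18, both higher (edgeR adjusted p below 0.05, as for 18.7% of all features). Of the 11 log2 changes 9 were positive and 2 negative, Epcam at -0.13 and Cftr at -0.37. The 10 leukocyte markers summed to 2.80 to 5.18 CPM, with Adgre1 at 0 in every library; the 8 fibroblast markers summed to 0.341 to 5.0, the 5 endothelial markers to 3.51 to 6.90 and the 6 acinar markers, with Cpa1 at 0, to 1.08 to 1.85. Endocrine markers summed to at most 0.230 CPM, with Ins1, Ins2 and Gcg at 0. In bulk samples such as these, fewer cells of a type and less RNA per cell cannot be told apart.

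Before doxycycline, the members spanned from abundant to absent. Levels of different genes are compared here per length, in the deposited TPM, a unit that corrects for transcript length, as means over the 5 lines at 0 h. Il1rn, the secreted antagonist of the interleukin-1 receptor, was the most abundant at 206 TPM, followed by Tnfaip2, a gene induced by tumour necrosis factor, at 132 TPM. Below them stood the neutrophil chemokine Cxcl5 at 95.2 TPM, the lipopolysaccharide co-receptor Cd14 at 90.2, the membrane-anchored chemokine Cxcl16 at 84.9 and Ccl20, which attracts cells bearing the receptor CCR6, at 67.7. Il1rn lay above Tnfaip2 in every library, at 149.5 TPM or more against 149.4 or less. Other neighbours in this order could overlap between lines, as the plot of levels before doxycycline shows. Among NF-κB subunits, Nfkb1 was the highest at 46.6 TPM, then Rela at 23 and Nfkb2 at 22.7, with Relb at 9.77 and Rel at 1.58. The interleukin-1 agonist Il1a stood at 0.504 TPM, far below its antagonist Il1rn. The classical inflammatory cytokines Il1b and Il6 had at most 2 estimated counts in any library, and Tslp, an epithelial cytokine, at most 1. Il1b and Il6 were at 0 in 13 of 15 libraries each and Tslp in 12, so these 3 did not pass the expression filter and were not tested. The other 35 members were tested, with Traf1, Csf3 and Saa3 the lowest in counts summed over the 15 libraries, at 1 to 16, 5 to 25 and 15 to 44 per library.

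**Figure D1:**
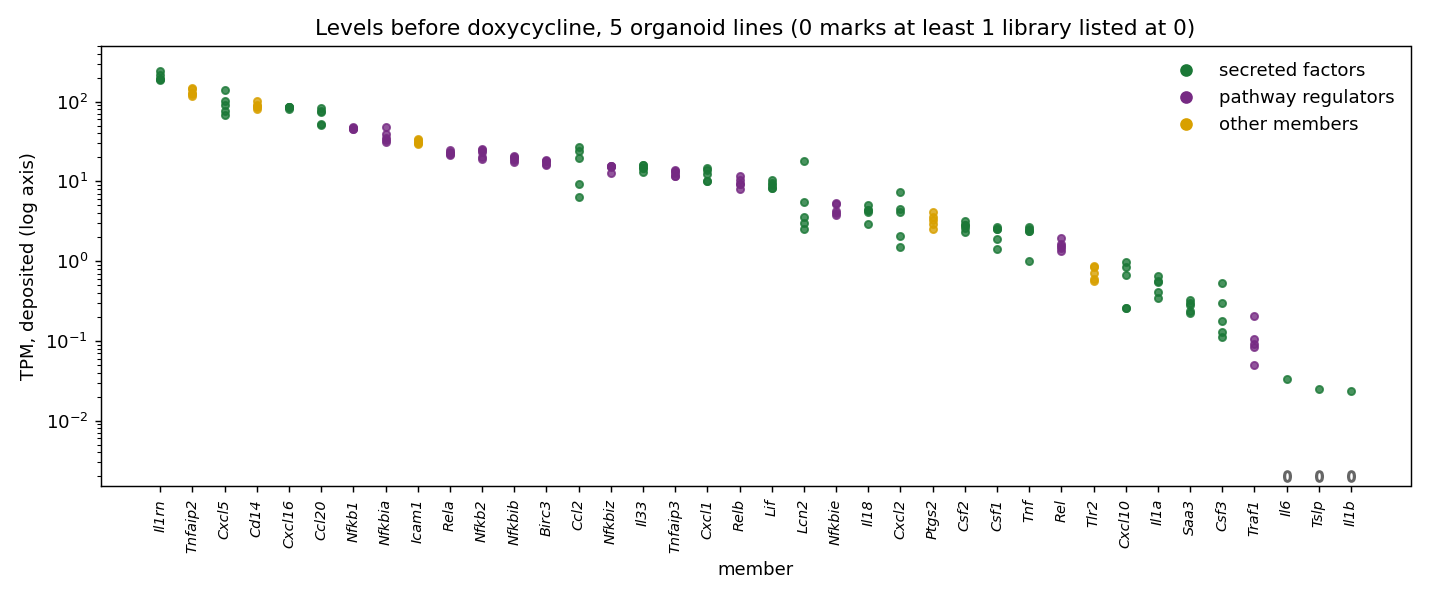
Deposited TPM (log axis) of all 38 members at 0 h, 1 point per organoid line (n = 5), ordered by mean and coloured by role; the mark 0 shows members listed at 0 in at least 1 library. Il1rn is highest, at 206 TPM on average, and Il6, Tslp and Il1b lie at or near 0.

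Doxycycline was followed by a rise of many of these genes in both genotypes, small at 4 h and broad at 24 h. Averaged over the genotypes, 2 of the 35 tested members passed at 4 h, both higher, and 15 passed at 24 h, 14 higher and 1 lower (edgeR quasi-likelihood test, Benjamini-Hochberg adjusted p below 0.05 over 16462 features). Of all tested features, 0.911% passed at 4 h (0.528% higher and 0.383% lower) and 18.7% at 24 h (10.9% and 7.83%). When a replicate block compared each line with itself, 14 members passed at 4 h, 12 higher and 2 lower, and 24 at 24 h, 23 higher and 1 lower, against 8.67% (3.75% higher and 4.92% lower) and 36.1% (20.7% and 15.4%) of all features. The members' median log2 change was 0.15 at 4 h and 0.45 at 24 h, where the median over all tested features was 0.00 both times. At 24 h, 23 of the 35 were higher than at 0 h in all 5 lines, 1 was lower in all and 11 were mixed. At 4 h these counts were 18, 2 and 15. The same counts were not made over all features, so they cannot show whether the members stand out. From 4 h to 24 h, 10 members rose and 2 fell (19.5% of all features passed, 11.3% higher and 8.24% lower), or 23 and 3 with the replicate block (37%, 21.2% higher and 15.9% lower). This 24 h against 4 h count was 6 without the negative 4 h or the negative 24 h library of A223 and 7 without the negative 24 h library of A218.

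Secreted factors had a larger median change than pathway regulators at 24 h. The 18 tested secreted factors had a median log2 change of 0.74, and 8 rose; the 12 regulators had a median of 0.225, with 5 rises and 1 fall. The same medians were 0.565 and 0.21 in inducible lines and 0.91 and 0.28 in negative lines. At 4 h both medians were 0.16. Single members ranged from -0.41 to 1.73 among secreted factors and from -0.50 to 0.65 among regulators at 24 h, so the ranges of the groups overlapped, and the difference between the medians was not tested. Averaged over the genotypes at 24 h, the largest log2 changes were those of Csf1, Il1a and Csf2; the plot of changes shows each genotype and time.

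**Figure D2:**
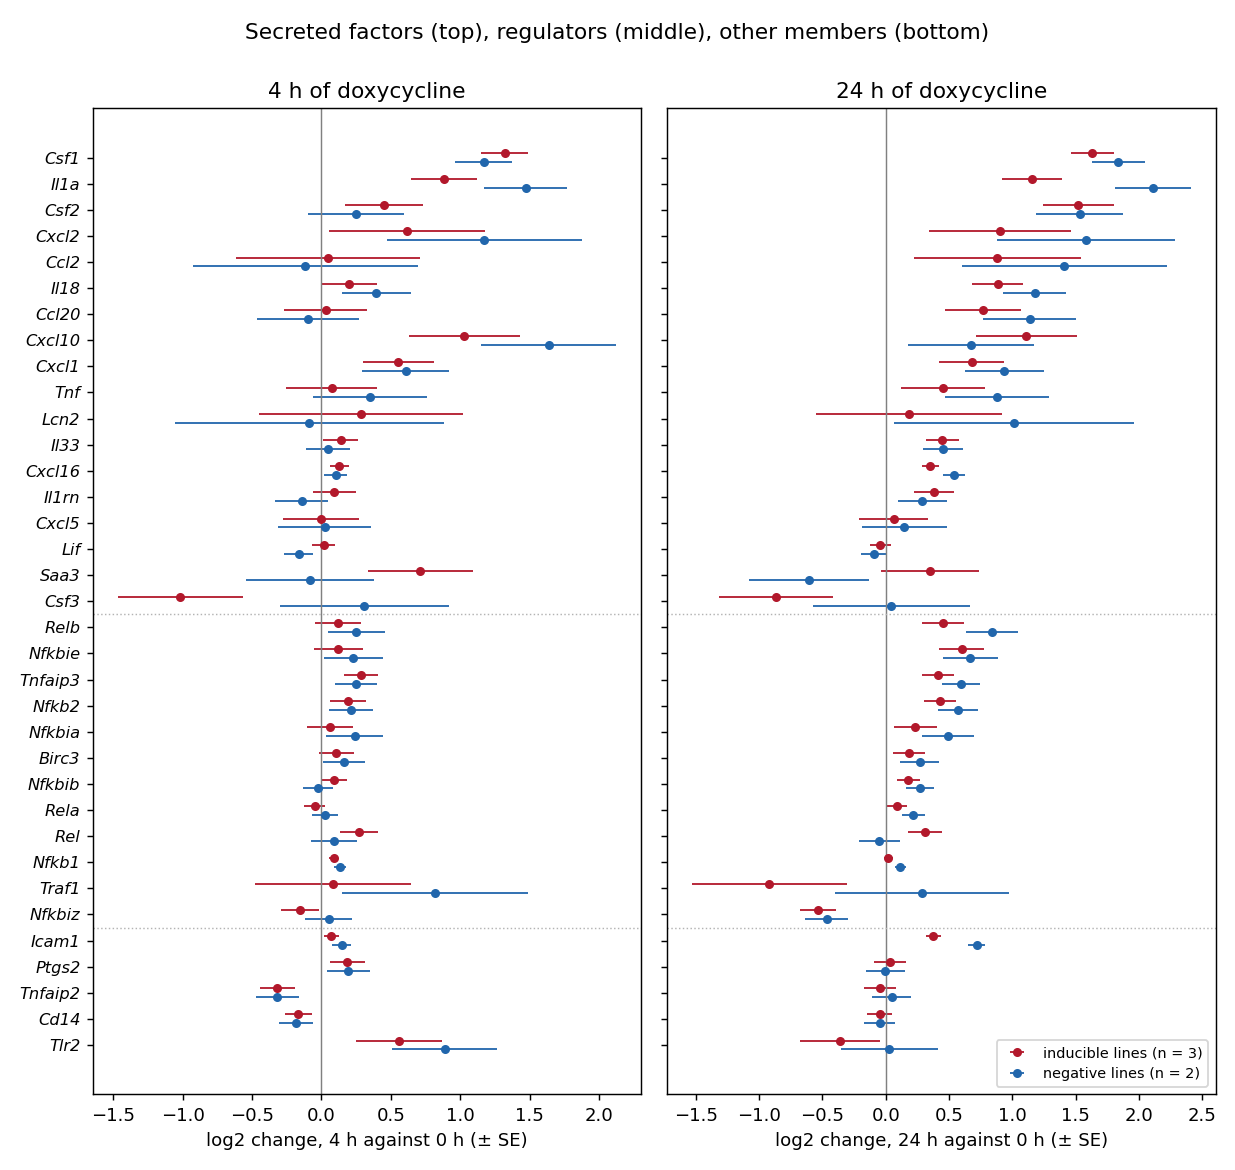
Log2 change against 0 h (edgeR, ± SE) of the 35 tested members after 4 h (left) and 24 h (right) of doxycycline, in inducible (red, n = 3) and negative (blue, n = 2) lines; dotted lines separate secreted factors, regulators and other members. At 24 h Csf1 reached 1.63 in inducible and 1.84 in negative lines, and Nfkbiz lay below 0 in both.

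The colony-stimulating factors Csf1 and Csf2 and the interleukin-1 relatives Il1a, Il18 and Il33 rose. Csf1, the growth factor of macrophages, had risen by 4 h and rose further. Csf1 stood at 3.70, 3.85 and 4.66 CPM at 0 h in A217, A220 and A225, at 8.96, 11.3 and 10.2 at 4 h and at 9.61, 14.4 and 13.8 at 24 h. For Csf1 in A218 and A223 the levels were 4.12 and 4.04 CPM at 0 h, 10.2 and 8.19 at 4 h and 16.3 and 12.9 at 24 h. Every 4 h and 24 h value lay above all 0 h values, and A217 was the lowest line at 24 h. The log2 change of Csf1 was 1.24 ± 0.13 (SE, edgeR adjusted p = 0.000436) at 4 h and 1.73 ± 0.13 (SE, edgeR adjusted p = 9.7e-06) at 24 h, a 3.32-fold rise, and it was also higher at 24 h than at 4 h (0.49 ± 0.13 (SE, edgeR adjusted p = 0.0194)). The last of these calls was lost without the negative 24 h library of A218 (adjusted p = 0.096) or the negative 4 h library of A223 (0.101). Csf2, which drives granulocytes and macrophages, changed late. Csf2 stood at 1.06, 1.43 and 1.24 CPM at 0 h in A217, A220 and A225, at 0.928, 1.87 and 2.30 at 4 h and at 3.00, 3.77 and 3.96 at 24 h. For Csf2 in A218 and A223 the levels were 1.25 and 1.15 CPM at 0 h, 1.20 and 1.66 at 4 h and 3.21 and 3.74 at 24 h. The 4 h values overlapped those at 0 h, and all 24 h values lay above both. Its log2 change was 0.35 ± 0.22 (SE, edgeR adjusted p = 0.621) at 4 h and 1.53 ± 0.22 (SE, edgeR adjusted p = 0.000862) at 24 h, 2.88-fold. Csf3, the neutrophil factor, had 5 to 25 counts per library and did not pass (-0.41 ± 0.39 (SE, edgeR adjusted p = 0.505) at 24 h).

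Il1a, an alarm cytokine that signals through the interleukin-1 receptor, rose early, at 22 to 105 counts per library. Il1a stood at 0.701, 0.817 and 0.705 CPM at 0 h in A217, A220 and A225, at 1.19, 1.22 and 1.69 at 4 h and at 1.17, 1.67 and 2.10 at 24 h. For Il1a in A218 and A223 the levels were 0.424 and 0.512 CPM at 0 h, 1.26 and 1.35 at 4 h and 2.01 and 2.05 at 24 h. No 4 h or 24 h value overlapped the 0 h values, and the negative lines started lowest. The log2 change was 1.18 ± 0.19 (SE, edgeR adjusted p = 0.0102) at 4 h and 1.63 ± 0.19 (SE, edgeR adjusted p = 0.000207) at 24 h, 3.10-fold. The 4 h call was lost without the 0 h library of A218 (adjusted p = 0.0911), the 0 h library of A223 (0.063) or the 4 h library of A223 (0.058). Its antagonist Il1rn ranged from 104 to 193 CPM over all libraries, and its log2 change of 0.33 ± 0.13 (SE, edgeR adjusted p = 0.082) at 24 h did not pass, but passed with the replicate block (adjusted p = 1.27e-05). Il18, a cytokine made as an inactive precursor, was 2.04-fold higher at 24 h. Il18 stood at 2.14, 2.05 and 2.42 CPM at 0 h in A217, A220 and A225, at 2.39, 2.62 and 2.59 at 4 h and at 3.38, 3.99 and 4.85 at 24 h. For Il18 in A218 and A223 the levels were 1.39 and 2.14 CPM at 0 h, 1.87 and 2.78 at 4 h and 3.84 and 4.13 at 24 h. All 24 h values exceeded all 0 h values, and the log2 change was 1.03 ± 0.16 (SE, edgeR adjusted p = 0.00128). Il33, a nuclear alarm cytokine of epithelia, went from 20.6 to 26.1 CPM at 0 h to 27.2 to 37.7 at 24 h, a log2 change of 0.45 ± 0.10 (SE, edgeR adjusted p = 0.01). Without the 0 h library of A218 or the 24 h library of A223 the adjusted p of Il33 was 0.0554 and 0.055. Tnf, the gene of tumour necrosis factor, stood between 1.01 and 2.77 CPM at 0 h and between 2.07 and 4.21 at 24 h, higher in each of the 5 lines, and its log2 change of 0.67 ± 0.26 (SE, edgeR adjusted p = 0.0963) did not pass, but passed with the replicate block (adjusted p = 0.00014). Lif, a cytokine of the interleukin-6 family, stayed between 12.2 and 15.6 CPM (-0.07 ± 0.07 (SE, edgeR adjusted p = 0.534)).

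Chemokines followed different courses. Cxcl1 and Cxcl2, which attract neutrophils through the receptor CXCR2, were higher by 4 h in every line. Cxcl1 stood at 6.60, 7.89 and 9.33 CPM at 0 h in A217, A220 and A225, at 8.37, 13.4 and 13.2 at 4 h and at 7.97, 14.5 and 15.7 at 24 h. For Cxcl1 in A218 and A223 the levels were 8.28 and 6.11 CPM at 0 h, 12.7 and 9.21 at 4 h and 14.7 and 12.8 at 24 h. Lines overlapped between times, but in each line both later values lay above that at 0 h, least so in A217. The log2 change of Cxcl1 was 0.58 ± 0.20 (SE, edgeR adjusted p = 0.247) at 4 h, where the replicate block gave adjusted p = 0.000853, and 0.81 ± 0.20 (SE, edgeR adjusted p = 0.0164) at 24 h. The 24 h call was lost without the 24 h library of A218 (adjusted p = 0.0615) or the 0 h library of A223 (0.0838). Cxcl2 stood at 5.78, 3.29 and 1.16 CPM at 0 h in A217, A220 and A225, at 7.46, 5.46 and 2.74 at 4 h and at 8.89, 7.03 and 3.18 at 24 h. For Cxcl2 in A218 and A223 the levels were 2.97 and 1.28 CPM at 0 h, 6.05 and 3.53 at 4 h and 8.22 and 4.46 at 24 h. Cxcl2 was higher at 24 h than at 4 h and at 4 h than at 0 h in each line, while lines at 1 time differed by up to several fold. Its log2 change was 0.90 ± 0.45 (SE, edgeR adjusted p = 0.477) at 4 h and 1.24 ± 0.45 (SE, edgeR adjusted p = 0.0735) at 24 h, and it did not pass, but passed with the replicate block (adjusted p = 0.000306 and 3.32e-06). Cxcl10, an interferon-responsive chemokine for T cells, had 9 to 55 counts per library and stood at 0.171 to 0.558 CPM at 0 h, 0.606 to 1.12 at 4 h and 0.429 to 0.776 at 24 h. Its 4 h values lay above all 0 h values, and its log2 change at 4 h was 1.33 ± 0.31 (SE, edgeR adjusted p = 0.0697), with adjusted p = 0.0165 with the replicate block.

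Ccl2 and Ccl20 differed in timing from Cxcl1, with values at 4 h close to those at 0 h and higher values at 24 h. Ccl20 stood at 34.8, 35.4 and 22.6 CPM at 0 h in A217, A220 and A225, at 33.9, 41.1 and 19.9 at 4 h and at 52, 64.4 and 41.9 at 24 h. For Ccl20 in A218 and A223 the levels were 37.6 and 23.6 CPM at 0 h, 34.5 and 22.8 at 4 h and 83.7 and 50.6 at 24 h. All 24 h values exceeded all 0 h values, and A218 was the highest. Ccl20 changed by -0.03 ± 0.24 (SE, edgeR adjusted p = 0.993) at 4 h and 0.95 ± 0.24 (SE, edgeR adjusted p = 0.0162) at 24 h, 1.94-fold. This call was lost without the 24 h library of A218 (adjusted p = 0.0828) or the 0 h library of A223 (0.085). Ccl2, the main chemokine for monocytes, was higher at 24 h in all 5 lines. Ccl2 stood at 9.08, 11.1 and 2.82 CPM at 0 h in A217, A220 and A225, at 10.2, 10.6 and 2.98 at 4 h and at 16.7, 19.2 and 6.51 at 24 h. For Ccl2 in A218 and A223 the levels were 11.9 and 4.21 CPM at 0 h, 10.8 and 4.09 at 4 h and 32.3 and 10.5 at 24 h. A225 and A223 were low at every time, and their 24 h values lay below or near the 0 h values of the other lines. The log2 change at 24 h was 1.15 ± 0.52 (SE, edgeR adjusted p = 0.148), and with the replicate block 1.16 ± 0.07 (adjusted p = 7.8e-08). Cxcl16 rose from 97.6 to 108 CPM at 0 h to 121 to 150.2 at 24 h, with no overlap, a log2 change of 0.45 ± 0.05 (SE, edgeR adjusted p = 0.00029). Cxcl5 did not pass at 24 h (0.11 ± 0.22 (SE, edgeR adjusted p = 0.782); replicate block, adjusted p = 0.0636). The plot of time courses shows these patterns beside those of the regulators.

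**Figure D3:**
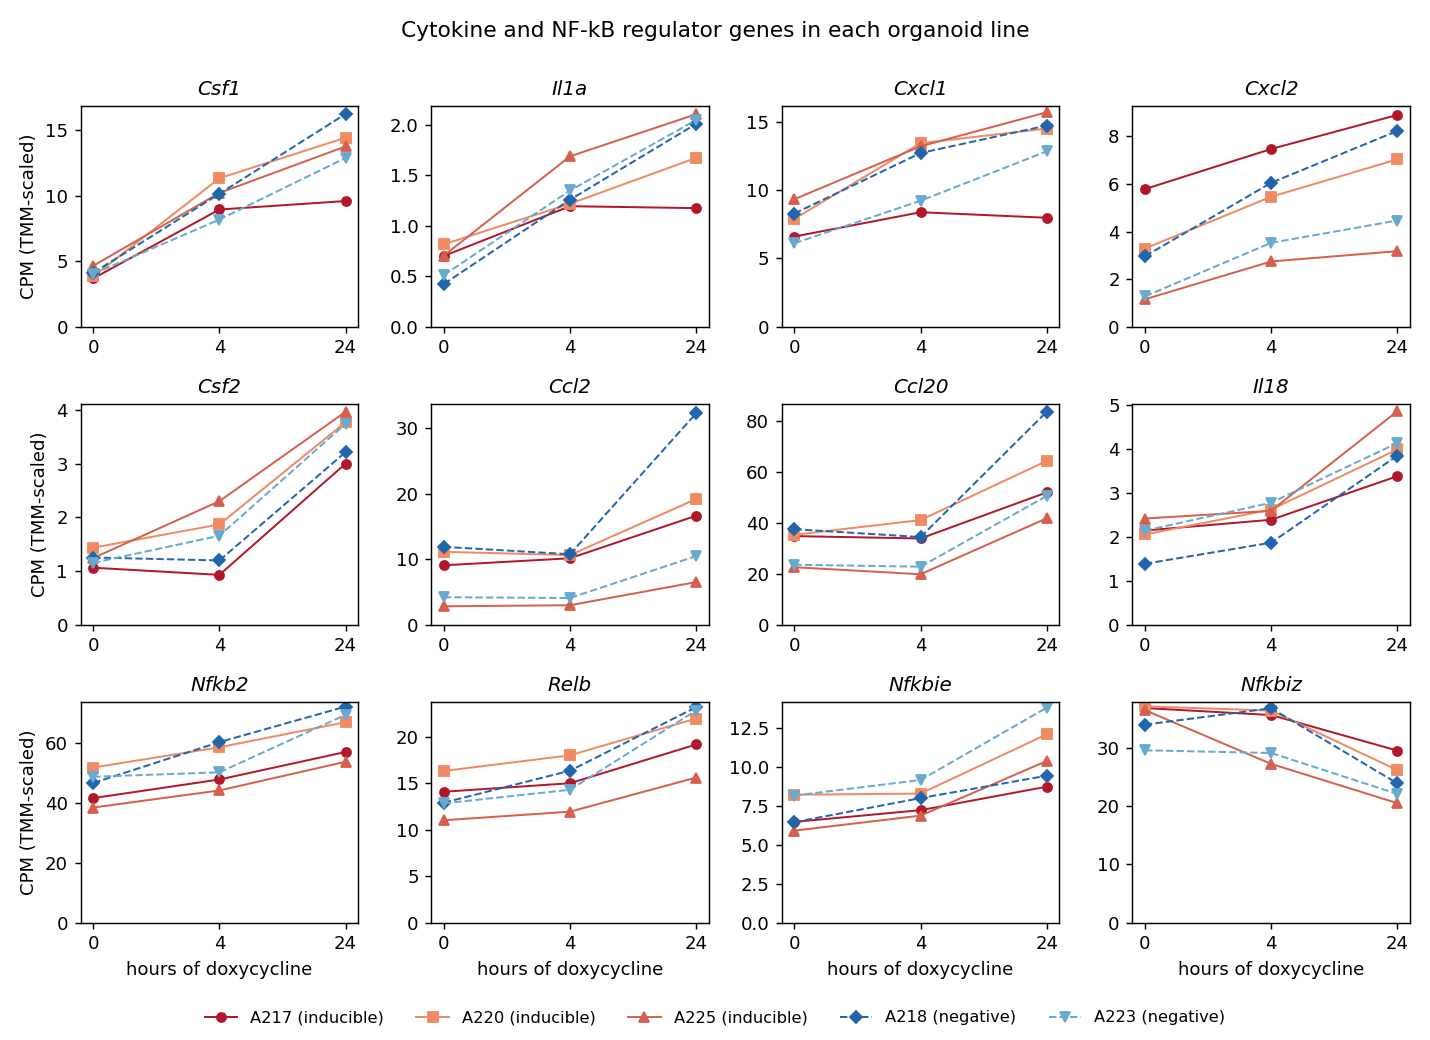
TMM-scaled CPM of 12 members in each organoid line at 0, 4 and 24 h of doxycycline (positions on the time axis are not to scale); solid red lines are inducible, dashed blue lines negative. Csf1 and Il1a are higher in every line at 4 h, Csf2 and Ccl20 lie above all 0 h values at 24 h, and Nfkbiz is lowest at 24 h in every line.

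Promoter sequence of the members was then described. RefSeq windows of 300 bases (GRCm38.p6) were found for 29 of the 38 members and searched on both strands for the κB consensus, the binding letters of NF-κB, and for the AP-1 motif TGANTCA. The κB consensus occurred in 12 of the 29, among them 6 of 16 secreted factors, 5 of 9 regulators and 1 of 4 other members, and in 5.14% of all 27025 genes with such windows. AP-1 occurred in 8 of the 29 and in 8.97% of all genes. The members were chosen by name as inflammatory and NF-κB genes, so these shares cannot bear on the response to doxycycline. The 250 bases before the start site are printed 5′ to 3′ for 6 members, with matches in capitals (κB in the first 4; κB and AP-1 in Nfkbie; AP-1 in Il1a), because these genes stand for the early risers, a late riser and an inhibitor of the loop.
Csf1, chr3:107760470-107760719, minus strand: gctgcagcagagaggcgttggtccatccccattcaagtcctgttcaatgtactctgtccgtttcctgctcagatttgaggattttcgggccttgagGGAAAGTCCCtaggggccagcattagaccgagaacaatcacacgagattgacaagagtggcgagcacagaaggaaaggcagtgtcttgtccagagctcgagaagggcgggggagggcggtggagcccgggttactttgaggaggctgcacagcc
Cxcl1, chr5:90890995-90891244, plus strand: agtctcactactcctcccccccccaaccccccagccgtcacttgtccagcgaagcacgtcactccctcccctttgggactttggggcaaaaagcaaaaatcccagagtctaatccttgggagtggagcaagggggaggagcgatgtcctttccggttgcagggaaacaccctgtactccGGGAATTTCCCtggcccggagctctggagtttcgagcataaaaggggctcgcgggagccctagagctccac
Cxcl2, chr5:90903649-90903898, plus strand: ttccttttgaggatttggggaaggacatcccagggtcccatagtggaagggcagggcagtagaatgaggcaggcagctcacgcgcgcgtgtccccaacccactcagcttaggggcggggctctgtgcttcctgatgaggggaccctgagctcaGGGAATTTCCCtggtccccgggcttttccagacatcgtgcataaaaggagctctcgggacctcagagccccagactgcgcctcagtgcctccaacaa
Ccl20, chr1:83116516-83116765, plus strand: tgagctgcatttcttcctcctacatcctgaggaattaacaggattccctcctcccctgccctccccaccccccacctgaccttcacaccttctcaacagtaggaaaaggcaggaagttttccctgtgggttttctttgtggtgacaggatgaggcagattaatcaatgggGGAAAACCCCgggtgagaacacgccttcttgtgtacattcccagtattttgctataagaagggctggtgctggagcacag
Nfkbie, chr17:45555450-45555699, plus strand: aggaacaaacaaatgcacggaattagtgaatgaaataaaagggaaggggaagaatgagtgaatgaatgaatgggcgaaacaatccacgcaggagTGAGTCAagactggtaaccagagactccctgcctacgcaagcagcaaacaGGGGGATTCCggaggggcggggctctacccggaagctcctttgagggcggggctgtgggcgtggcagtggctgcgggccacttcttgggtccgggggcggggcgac
Il1a, chr2:129309973-129310222, minus strand: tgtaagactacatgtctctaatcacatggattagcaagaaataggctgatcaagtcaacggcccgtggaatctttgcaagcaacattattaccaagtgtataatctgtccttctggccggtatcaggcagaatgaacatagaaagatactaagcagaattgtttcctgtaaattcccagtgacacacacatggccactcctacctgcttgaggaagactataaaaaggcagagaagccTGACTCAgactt
In Cxcl1 and Cxcl2 the matched letters were the same 11 bases, where overlapping matches lie on both strands, 71 and 97 bases before the start site. Ccl20 had its match at 80 bases and Csf1 at 154, so both early and late risers held one. In 17 of the 29 members no κB match was found, among them the risers Csf2, Il18, Il33 and Icam1. Matches also occurred in Il6, which had too few counts to be tested. Cxcl2, Cxcl10, Nfkbia, Rel and Tlr2 held κB matches too. These did not pass at 24 h against 0 h over both genotypes in the fit without the replicate block. The κB letters of Nfkbie lay 106 bases before its start and the AP-1 letters 156, and Il1a held AP-1 letters 12 bases before its start and no κB match in the window. A match is a description of letters, and whether a factor binds there was not measured.

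**Figure D4:**
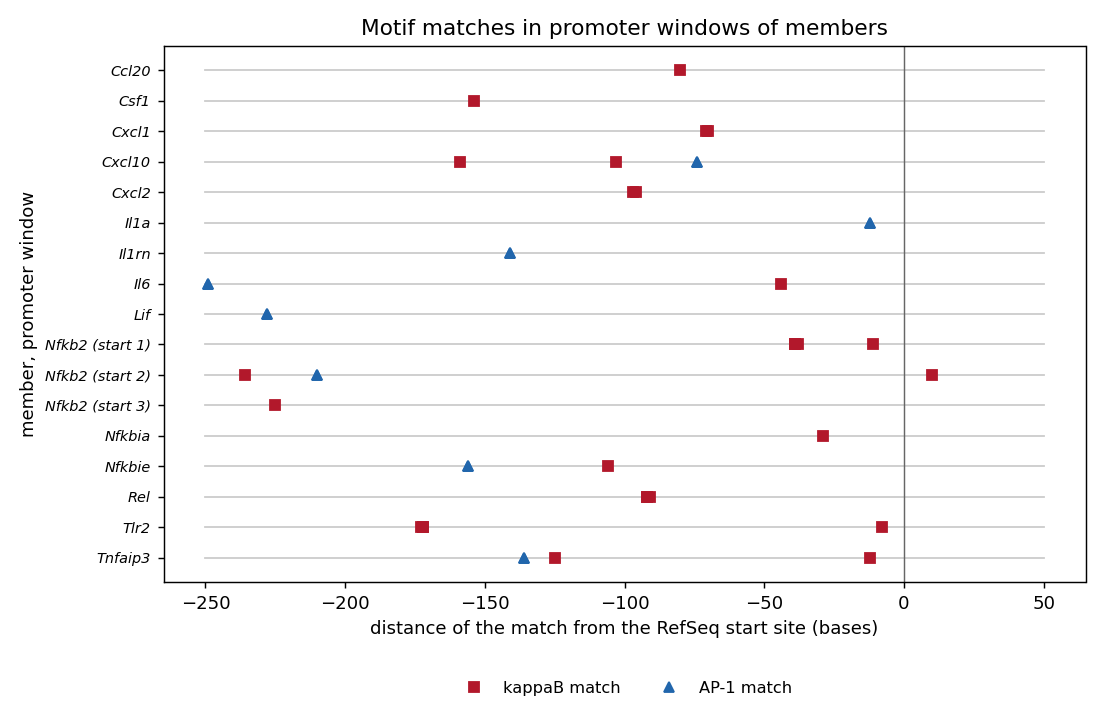
Distance in bases from the RefSeq start site of every κB match (red squares) and AP-1 match (blue triangles) in the 300-base windows of members with at least 1 match; grey lines are the windows searched, and Nfkb2 has 3 start sites. Csf1, Cxcl1, Cxcl2 and Ccl20 each hold κB letters between 70 and 154 bases before the start.

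Among the NF-κB subunits, the non-canonical pair Nfkb2 and Relb rose at 24 h. Nfkb2 went from 38.5 to 51.9 CPM at 0 h to 53.8 to 72.2 at 24 h, without overlap, a log2 change of 0.50 ± 0.10 (SE, edgeR adjusted p = 0.00577). Relb stood at 14.1, 16.3 and 11 CPM at 0 h in A217, A220 and A225, at 15, 18 and 11.9 at 4 h and at 19.1, 21.9 and 15.6 at 24 h. For Relb in A218 and A223 the levels were 12.9 and 12.8 CPM at 0 h, 16.3 and 14.3 at 4 h and 23.2 and 22.8 at 24 h. Relb was higher at 24 h in each line, while A225 at 24 h lay below A220 at 0 h. Its log2 change at 24 h was 0.65 ± 0.13 (SE, edgeR adjusted p = 0.00609). The canonical subunits moved little. Nfkb1 stood between 96.6 and 109 CPM in all libraries (0.07 ± 0.03 (SE, edgeR adjusted p = 0.105) at 24 h), Rela between 37.8 and 46.5 (0.15 ± 0.06 (SE, edgeR adjusted p = 0.0939)) and Rel between 6.66 and 10.7 (0.13 ± 0.11 (SE, edgeR adjusted p = 0.43)). With the replicate block, Nfkb1 passed at 4 h (log2 change 0.11, adjusted p = 0.0262) and Rela at 24 h (0.15, adjusted p = 0.00688).

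Among inhibitors and feedback regulators, Nfkbie, Tnfaip3 and Nfkbib rose at 24 h and Nfkbiz fell. Nfkbie, which holds subunits in the cytoplasm, was higher at 24 h. Nfkbie stood at 6.46, 8.21 and 5.91 CPM at 0 h in A217, A220 and A225, at 7.22, 8.28 and 6.87 at 4 h and at 8.73, 12.1 and 10.4 at 24 h. For Nfkbie in A218 and A223 the levels were 6.45 and 8.16 CPM at 0 h, 7.99 and 9.15 at 4 h and 9.43 and 13.8 at 24 h. No 24 h value overlapped the 0 h values, and the log2 change was 0.63 ± 0.14 (SE, edgeR adjusted p = 0.00889). Without the 0 h library of A218 or the 24 h library of A223 the adjusted p was 0.0544 and 0.0549. Tnfaip3, which encodes the ubiquitin-editing protein A20 that shuts the pathway off, went from 25.9 to 33.5 CPM at 0 h to 35.8 to 46.3 at 24 h, a log2 change of 0.50 ± 0.10 (SE, edgeR adjusted p = 0.00474), and at 4 h it passed with the replicate block (0.26, adjusted p = 0.00222). Nfkbia, the principal IκB, changed by 0.36 ± 0.13 (SE, edgeR adjusted p = 0.0718) at 24 h and did not pass, but passed with the replicate block (adjusted p = 1.44e-05), as did Birc3, a ubiquitin ligase of the receptor complex (0.22 ± 0.10 (SE, edgeR adjusted p = 0.131); block 0.00536). Nfkbib, a further IκB, rose by 0.22 ± 0.07 (SE, edgeR adjusted p = 0.0431), a call lost in 8 of the 10 fits that left out a library and with median-of-ratios scaling (adjusted p = 0.0508). Nfkbiz, a nuclear IκB that co-activates chosen targets, was the member that fell. Nfkbiz stood at 36.8, 37.1 and 36.5 CPM at 0 h in A217, A220 and A225, at 35.6, 36.4 and 27.2 at 4 h and at 29.5, 26.2 and 20.5 at 24 h. For Nfkbiz in A218 and A223 the levels were 34 and 29.6 CPM at 0 h, 36.8 and 29.1 at 4 h and 23.9 and 22.1 at 24 h. At 4 h A225 stood at 27.2 against 36.5 CPM at 0 h, and at 24 h every line lay below its own 0 h value. Its log2 change was -0.05 ± 0.11 (SE, edgeR adjusted p = 0.951) at 4 h and -0.50 ± 0.11 (SE, edgeR adjusted p = 0.00933) at 24 h. Traf1, an adaptor of the receptor complex, had at most 16 counts per library and did not pass (-0.31 ± 0.46 (SE, edgeR adjusted p = 0.684) at 24 h).

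Of the 5 other members, Icam1, the adhesion molecule that leukocytes bind, rose. Icam1 stood at 55.7, 52.2 and 55.5 CPM at 0 h in A217, A220 and A225, at 54.9, 56.2 and 60.6 at 4 h and at 66.9, 75.9 and 69.4 at 24 h. For Icam1 in A218 and A223 the levels were 49.3 and 46.9 CPM at 0 h, 54.1 and 52.3 at 4 h and 78.5 and 79.6 at 24 h. All 24 h values lay above all 0 h values, and the log2 change at 24 h was 0.55 ± 0.04 (SE, edgeR adjusted p = 1.48e-05). Tlr2, a receptor of bacterial lipoproteins, was higher at 4 h in all 5 lines and back near its start at 24 h, at 45 to 191 counts per library. Tlr2 stood at 1.42, 1.14 and 1.69 CPM at 0 h in A217, A220 and A225, at 1.52, 1.48 and 3.25 at 4 h and at 0.944, 1.11 and 1.25 at 24 h. For Tlr2 in A218 and A223 the levels were 1.16 and 1.63 CPM at 0 h, 2.03 and 3.12 at 4 h and 1.38 and 1.46 at 24 h. The 4 h values of A225 and A223 stood apart, above 3 CPM. Tlr2 changed by 0.72 ± 0.24 (SE, edgeR adjusted p = 0.232) at 4 h, with adjusted p = 0.0212 with the replicate block, and by -0.89 ± 0.25 (SE, edgeR adjusted p = 0.0246) from 4 h to 24 h. The latter call was lost without the 4 h or 24 h library of A223 (adjusted p = 0.117 and 0.0745) or the 24 h library of A218 (0.082). Tnfaip2 was lower at 4 h in every line, at 162 to 201.9 CPM against 199 to 257 at 0 h, and 188 to 253 at 24 h. Its log2 change was -0.32 ± 0.10 (SE, edgeR adjusted p = 0.187) at 4 h (replicate block, adjusted p = 0.000131) and 0.00 ± 0.10 (SE, edgeR adjusted p = 0.995) at 24 h. Cd14 was also lower at 4 h in all lines (-0.18 ± 0.08 (SE, edgeR adjusted p = 0.402); replicate block, 0.00425), and Ptgs2, the inducible cyclooxygenase, did not pass at either time against 0 h.

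The rises were present in both genotypes, and no member's response differed between them by test. At 24 h, 7 members passed in inducible lines, 6 higher and 1 lower (4.93% of all features passed, 3.44% higher and 1.49% lower), and 8 passed in negative lines, all higher (3.8%, 2.73% higher and 1.06% lower). With the replicate block the counts were 21, 20 of them higher (24.2% of features, 14% higher and 10.2% lower), and 23, 22 of them higher (22.5%, 13.6% higher and 8.83% lower). At 4 h, 1 member passed in inducible lines, Csf1 (0.298% of features), and 0 passed in negative lines (0.121%), where 5 had an unadjusted p below 0.05 and DESeq2 called 1; the replicate block gave 7 (3.05%) and 5 (2.04%). The 24 h count in inducible lines fell to 2 without the 0 h library of A217, to 3 without the 24 h library of A220 or A225, and to 4 without the 0 h library of A225, and it was 11 without the 24 h library of A217. In negative lines it was 2 without the 0 h library of A218 and 3 without any other of the 0 h or 24 h libraries. The test of the difference between the genotypes' responses called 0 of 35 members at 4 h and 0 at 24 h with edgeR (0.0121% of features each time), and 0 with DESeq2, limma-voom and the replicate block (0.0182% and 0.0243% of features). In the edgeR fit that does not pair libraries of a line, 0 members had an unadjusted p below 0.05 at 4 h. At 24 h there were 2, Icam1 and Il1a. In the fit with the replicate block, Relb had a difference of -0.38 ± 0.09 (SE) at 24 h. Its edgeR adjusted p there was 0.492, the same as that of Icam1. Icam1 changed by 0.38 in inducible and 0.72 in negative lines at 24 h, a difference of -0.34 ± 0.09 (SE, edgeR adjusted p = 1). For Il1a the responses were 1.15 and 2.11, a difference of -0.95 ± 0.37 (SE, edgeR adjusted p = 1). The sign of the difference was negative for 28 of the 35 members at 24 h, with a median of -0.14 over members and -0.01 over all features; no test of this count was made. The median SE of a member's difference was 0.26 on the log2 scale in the fit that does not pair libraries of a line. Before doxycycline, 0 members passed between the genotypes (0% of features), and 0 with DESeq2. At an unadjusted p below 0.05 there were 3, Csf3, Icam1 and Il1a, each higher in inducible lines. Icam1 and Il1a started 0.18 and 0.66 higher on the log2 scale. The difference was positive at 0 h for 24 of the 35 members and negative for 11. The same 0 h libraries enter the difference between responses, and the part of this start in it was not tested.

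Organoid lines of the same genotype differed in the level of many members. The F test over lines called 23 of 35 members, 11 of 18 secreted factors, 8 of 12 regulators and 4 of 5 others, against 30.8% of all features. Each adjusted p in this paragraph is that of this joint F test over all line differences of a gene. Single pairs of lines were not tested. Ccl2 was -1.58 on the log2 scale in A225 relative to A217 and -1.52 in A223 relative to A218 (edgeR adjusted p = 5.79e-09). The same lines were low for Cxcl2 (-1.71 and -0.93, edgeR adjusted p = 5.23e-06), Cxcl5 (-0.82 and -0.49, edgeR adjusted p = 4.99e-07) and Ccl20 (-0.56 and -0.67, edgeR adjusted p = 5.93e-06). Fibroblast markers summed to 3.24 to 5.0 CPM in the libraries of A225 and to 3.31 in the 24 h library of A223, and below 1 in the others; their part in the line differences was not tested. Lcn2, an iron-sequestering protein of innate defence, stood apart in A217, at 9.57, 12.8 and 8.54 CPM at 0, 4 and 24 h, where all other libraries lay between 0.964 and 3.86. In A220 and A225 it was -2.21 and -1.77 relative to A217 (edgeR adjusted p = 3.37e-05). Tnf was lowest in A223, -1.11 relative to A218 (edgeR adjusted p = 0.000198). Cxcl1 went the other way from Cxcl2 in the inducible lines, with A225 0.71 above A217 (edgeR adjusted p = 0.000363). Csf2, Il18 and Il1a did not pass this test, nor did Icam1 (edgeR adjusted p = 0.0795, 0.0918, 0.314 and 0.703).

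**Figure D5:**
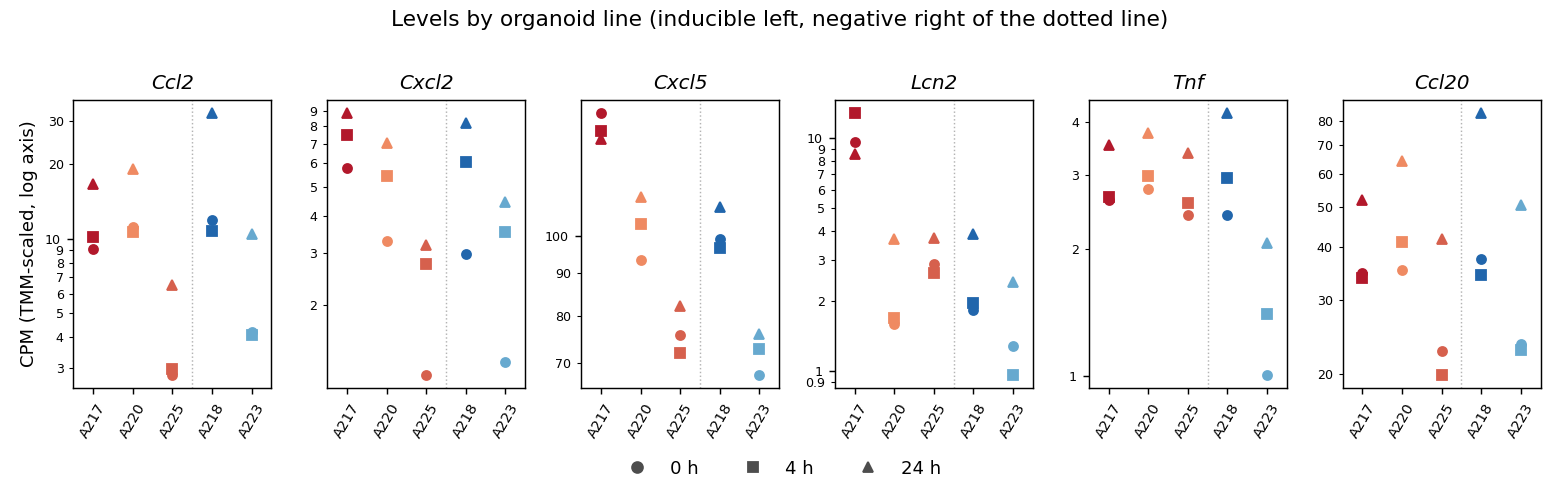
TMM-scaled CPM (log axes, each panel its own range) of 6 members in the 5 organoid lines; circles are 0 h, squares 4 h and triangles 24 h, 1 library each. Ccl2, Cxcl2, Cxcl5 and Ccl20 are low in A225 and A223, and Lcn2 is high in A217 at every time.

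Other genes of the pathway were read from 5 lists. At 24 h over both genotypes, 9 of 27 tested receptors, 11 of 33 signalling proteins and 5 of 15 feedback genes rose, 1 feedback gene fell, and of 7 tested inflammasome genes 1 rose and 1 fell (18.7% of all features passed). Of 31 further secreted factors 16 were tested, and 0 of them rose and 1 fell (9 at an unadjusted p below 0.05). With the replicate block, 14 receptors, 17 signalling proteins, 9 feedback genes, 2 inflammasome genes and 5 further secreted factors were higher and 0, 1, 1, 2 and 3 lower (36.1% of all features). Il1r1, the signalling receptor of Il1a, had risen by 4 h and stayed higher, with log2 changes of 0.67 ± 0.10 (SE, edgeR adjusted p = 0.00622) and 0.90 ± 0.10 (SE, edgeR adjusted p = 0.000153). Its levels were 43.1, 37.6 and 44.7 CPM at 0 h and 68.3, 73.4 and 86.1 at 24 h in inducible lines, and 36.3 and 39 and 65.9 and 78.8 in negative lines, with no overlap between times. Map3k14, the kinase that starts the non-canonical branch, changed by 0.66 ± 0.10 (SE, edgeR adjusted p = 0.00952) at 4 h and 0.88 ± 0.10 (SE, edgeR adjusted p = 0.000249) at 24 h. Casp4, an inflammatory caspase that senses lipopolysaccharide, had the largest rise of the 10 genes named by the rule, 1.19 ± 0.10 (SE, edgeR adjusted p = 1.91e-05) at 24 h, 2.28-fold. The largest log2 change among all tested receptors at 24 h was 2.85, for Il1r2, a further interleukin-1 receptor outside these 10. Its change was larger in negative than in inducible lines, a difference of -2.70 ± 1.00 (SE) that did not pass. Il6ra, the interleukin-6 receptor, rose at 24 h (0.95 ± 0.12 (SE, edgeR adjusted p = 0.00034)) and its partner Il6st by less (0.24 ± 0.04 (SE, edgeR adjusted p = 0.00168)), while the ligand Il6 was at or near 0. The adaptor Bcl10 changed by 0.23 ± 0.04 (SE, edgeR adjusted p = 0.0303) at 4 h and 0.49 ± 0.04 (SE, edgeR adjusted p = 3.09e-05) at 24 h. The remaining named genes rose by 0.17 to 0.27 at 24 h: the kinase Ripk1, the IKK subunit Ikbkg, the lymphotoxin receptor Ltbr and the dampener Tollip. Csf1r, the receptor of Csf1, which is also among the leukocyte markers, was chosen after its values were seen; it stood at 0.910, 0.917 and 1.58 CPM at 0 h and 1.57, 1.46 and 3.84 at 24 h in inducible lines and at 0.501 and 0.695 and 2.26 and 2.18 in negative lines (1.45 ± 0.33 (SE, edgeR adjusted p = 0.0106)). Of the other leukocyte markers, 3 were tested and had negative log2 changes that did not pass, Cd68 at -0.42, Itgam at -0.33 and Ptprc at -0.80 (edgeR adjusted p = 0.0946, 0.571 and 0.264).

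Exons of Csf2, Cxcl10, Cxcl16, Icam1, Il1a, Nfkb2, Nfkbib and Tnfaip2 overlap genes on the opposite strand, and how kallisto was set for strand is not given in the sources at hand. If strand was not used, reads within the shared exon bases, 42 to 552 per pair, cannot be told apart. The largest partner by counts is Sirt2, which shares 42 exon bases with Nfkbib. Shares of transcripts within a gene were stable for Ccl20, whose Ccl20-202 held 63.4 to 72.7% of its counts in the 15 libraries. They were not for Csf1, where Csf1-201 held 21 to 96%, for Relb, where Relb-202 held 16 to 67%, or for Tnfaip3, where Tnfaip3-201 held 29.3 to 53.1%. The levels of these genes are reported for the gene only.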

How the data were processed

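Total RNA of 15 organoid cultures was depleted of ribosomal RNA and sequenced in pairs, per the labels' protocols. Kallisto 0.43.1, GRCm38, DESeq and DESeq2 1.18.1 are named in the submitters' processing notes. The deposited files hold estimated counts per transcript, not normalised, and TPM values made by the authors, per the file headers; TPM was used for levels between genes and is scaled within each library. Estimated counts were summed per gene with GENCODE M21, which may not be the authors' release, and rounded; 1295 of 109304 identifiers did not match (0.557 to 0.593% of counts) and were left out.

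The test was edgeR 4.0.16 (R 4.3.3), quasi-likelihood, with TMM factors of 0.966 to 1.023, the default expression filter, 6 group means and all 15 libraries. It tested 16462 features with 9 residual degrees of freedom and a biological coefficient of variation of 0.157. Within each comparison the Benjamini-Hochberg adjustment ran over every tested feature, and features were called below 0.05; the 10 group comparisons and the line test form separate families. Effects averaged over genotypes weight the genotypes equally. CPM are TMM-scaled. Scripts were tested on simulated data. No 2 libraries of a group were copies (chi-square per degree of freedom 16.02 to 47.45).

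The same 5 lines were sampled at each time, so lines pair the libraries: libraries of a line deviated together from their group means (correlation 0.578 to 0.677 in inducible lines; 0.423 to 0.494 in negative lines, where 2 lines mirror each other). The fit with the line as replicate block had a coefficient of 0.058 and 6 degrees of freedom. Further alternatives were limma-voom 3.58.1 with a random block (correlation 0.417), DESeq2 1.42.0, median-of-ratios scaling, no filter, only the groups compared, and leaving out each library. The members were given; they, the lists and the tests were chosen with earlier results of these data known. Members that passed in any comparison or differed most between lines were named, and of the other pathway genes the 10 with the smallest adjusted p. Promoter sequences are from RefSeq; 9 members without an entry were not searched. Some genes of the leukocyte marker list are not reported here by name.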

Additional observations from a re-analysis of the deposited data

Results flagged for a closer look

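Among the 35 tested members at 4 h or 24 h, in 2 cases every inducible line moved one way and every negative line the other. Such cases were not counted over all features, so this count cannot be set against a background. Csf3, the neutrophil colony-stimulating factor, was lower at 4 h than at 0 h in A217, A220 and A225 and higher in A218 and A223, a difference of -1.33 on the log2 scale between the genotypes. At 0 h Csf3 stood at 0.474, 0.259 and 0.151 CPM in A217, A220 and A225 and at 0.0963 and 0.110 in A218 and A223, each inducible value above both negative ones, a difference that did not pass (log2 1.49 ± 0.53 (SE), edgeR adjusted p = 1). Saa3, an acute-phase protein, was higher at 24 h in the 3 inducible lines and lower in both negative lines, a difference of 0.96. The test of the difference itself, edgeR's interaction term, called neither (adjusted p = 0.9999 and 1). Csf3 had 5 to 25 and Saa3 15 to 44 counts per library.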

How the results depend on the processing

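All 120 tests of members called in a comparison or named kept their direction in each alternative that gave an adjusted p; DESeq2 gave none for some comparisons of Cxcl10, Cxcl2 and Il1a. The number of members called changed with the pairing of libraries of a line. With the replicate block it was 7 in place of 1 at 4 h and 21 in place of 7 at 24 h in inducible lines, 5 in place of 0 and 23 in place of 8 in negative lines, and 14, 24 and 26 in place of 2, 15 and 12 for 4 h, 24 h and 24 h against 4 h over both genotypes. Limma-voom with a random block gave 17 (24 h, inducible), 2 and 19 (4 h and 24 h, negative), and 9, 23 and 21 over both genotypes. DESeq2 gave 12 (24 h, inducible), 1 and 12 (4 h and 24 h, negative) and 4 (4 h, both), and no filter gave 1 (4 h, negative). Fitting only the groups compared gave 2 (24 h, inducible) and 12 (24 h, negative). Leaving out 1 library gave 2 to 11 members at 24 h in inducible lines, 2 to 3 in negative lines, and 1 to 3, 12 to 17 and 6 to 14 for 4 h, 24 h and 24 h against 4 h over both genotypes. The differences between the genotypes' responses and at 0 h stayed at 0 members in every alternative, and the block could not be fitted at 0 h, where a line has 1 library. The line test called 20 to 23. Over all features, the counts at 24 h were 812 (inducible), 625 (negative) and 3081 (both), against 3987, 3696 and 5936 with the block, 3399, 3135 and 5585 with limma-voom, 1819 and 1508 in the single genotypes with DESeq2, and 65 and 1734 with only the groups compared. At 4 h they were 49, 20 and 150, against 502, 336 and 1427 with the block, 273, 163 and 1033 with limma-voom and 150, 100 and 549 with DESeq2. From 4 h to 24 h, 3209 became 6097 with the block and 5719 with limma-voom. The causes of these differences were not tested. Few counts limit Traf1, Csf3 and Saa3.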
